A study of Mus musculus with 8 samples.

Results

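The sites described here are peaks of Ezh2 that were called in one of the wild-type libraries and again in cells lacking G9a and GLP, but not in the other wild-type library. They were chosen as peaks of wild-type Ezh2 library 1 on chromosomes 1 to 19 that overlapped a knockout Ezh2 peak by at least 1 bp and no peak of wild-type Ezh2 library 0. Of 11593 autosomal library 1 peaks (11766 with the sex chromosomes), 570 (4.92%) met this rule. Since the rule used the 3 Ezh2 lists, the scores, widths and positions of these peaks are given as a description with no test, and the G9a lists are the data that the rule did not use.

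All libraries came from TT2 mouse embryonic stem cells, a line whose labelled strain is a C57BL/6 female and a CBA male, grown with serum and LIF. Ezh2 was immunoprecipitated from wild-type TT2 cells in 2 libraries, numbered 0 and 1, and from TT2 cells labelled G9a-/- and GLP-/- in 1 library, numbered 0. G9a was immunoprecipitated from wild-type TT2 cells (1 library) and from G9a-/- GLP-/- cells rescued with wild-type G9a (1 library), which by their label still lacked GLP. Cells were fixed with 1% formaldehyde for 10 min, after 45 min in 2 mM DSG, a protein crosslinker, for G9a. The source name of the knockout Ezh2 library gives TT2 with no genotype, and its genotype was taken from the title and the description. Peak lists hold no measure of G9a or GLP levels or of stem cell markers, so neither the knockout nor the cell type could be checked from them. A single knockout library allows no test of the conditions, and the labels do not state whether the wild-type libraries were separate cultures.

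Ezh2 is the enzyme of PRC2, the Polycomb repressive complex that methylates lysine 27 of histone H3 and in embryonic stem cells is known for holding developmental regulator genes silent, often over CpG-rich promoters. G9a and its partner GLP form a heteromeric enzyme that places mono- and dimethylation on lysine 9 of histone H3. Peaks are called where reads exceed the input by a threshold, so a weak site can pass that threshold in one library and miss it in another.

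The lists differed in length and in their lowest score. On chromosomes 1 to 19 there were 5342 peaks in Ezh2 library 0, 11593 in library 1 and 6174 in the knockout, with lowest scores of 43.02, 30 and 43.03. There were 67077 wild-type and 83433 rescue G9a peaks, with a lowest score of 20 in both lists. The score is the authors' own value per peak, from their peak caller, and is used here to rank peaks within 1 list. Read counts are not part of these lists, so the depth behind each peak is unknown, and the intervals below cover only the counting of peaks, which are not independent where they neighbour each other.

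Within library 1 the 570 sites were of intermediate strength. Their library 1 scores ran from 30.45 to 1279 with a median of 146.2, which stood at percentile 70.5 of the autosomal library 1 peaks (quartiles 56.2 and 78.6, with 100 as the highest score). Peaks found in all 3 Ezh2 lists (1645) had a median at percentile 92.5, those shared with library 0 alone (951) at 80.9, and those called in library 1 alone (8427) at 37.4. The sites thus lay between the peaks of library 1 alone and the peaks that library 0 also called. In 10 equal groups by library 1 score, groups 6 to 9 held 455 of the 570 sites, or 79.8%. The exact binomial 95% interval was 76.3 to 83.0. The top group held 8. Scores below 43.02, the lowest in library 0, were seen at 64 sites (11.2%) and at 4094 (48.6%) of the peaks of library 1 alone.

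Among library 1 peaks that library 0 had not called, the share found in the knockout went up with the library 1 score. It was 6.34% over all 8997 such peaks. In the lowest score group it was 1.14% (13 of 1142), in the 8th group 21.3% (176 of 827), in the 9th 37.6% (108 of 287) and in the top group 47.1% (8 of 17). Library 1 peaks that library 0 had called were found in the knockout in 31.0%, 54.0% and 91.1% of cases in these last 3 groups (332, 872 and 1143 peaks). In each of these 3 groups the knockout share was thus lower where library 0 had no peak. Over all autosomal library 1 peaks 19.1% overlapped a knockout peak and 22.4% a library 0 peak.

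The knockout peaks at these sites lay a little below the middle of the knockout list in score and width. The sites were touched by 623 knockout peaks, 10.1% of the 6174. Their scores ran from 43.04 to 638.6 with a median of 55.0 (percentile 44.4 of the knockout list), against 85.62 (percentile 67.9) for knockout peaks in regions of all 3 lists and 47.35 (percentile 23.4) for knockout peaks outside library 1. Scores under 50 were held by 222 of the 623 (35.6%), close to the lowest score of the list, and scores of 100 or more by 44 (7.06%). In regions of all 3 lists 42.9% of knockout peaks scored 100 or more, and outside library 1 1.12% did. In median score the knockout peaks at these sites therefore stood between those of the regions of all 3 lists and those with no library 1 peak.

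The order of the sites in library 1 was only loosely kept in the knockout. Across the 570 sites the rank correlation of the library 1 score with the highest knockout score was 0.22, and across the 1645 peaks of all 3 lists it was 0.65. Both are descriptions across sites within these libraries, and the range of scores was narrower among the 570 sites. The library 1 score went with the width of the library 1 peak (rank correlation 0.74 over the 570 sites).

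**Figure D1:**
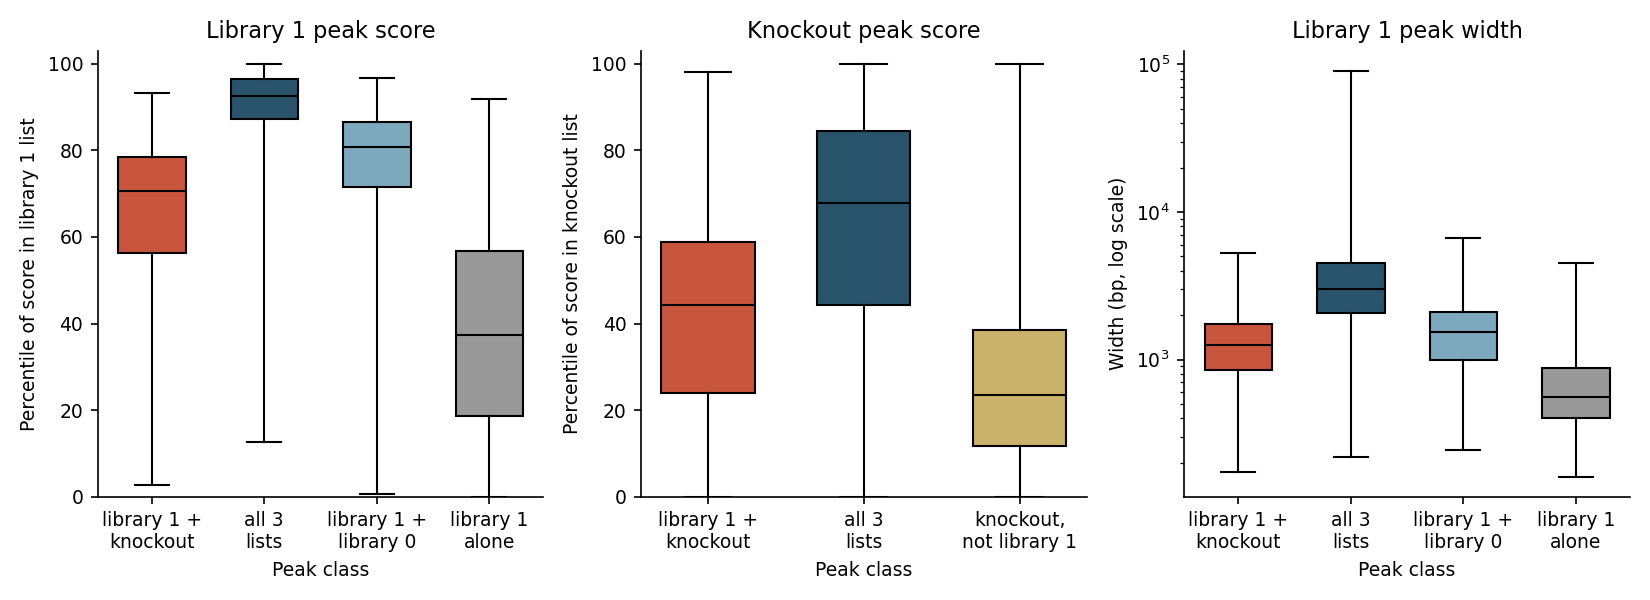
Score percentile within the library 1 list, score percentile within the knockout list, and width in bp on a log axis, for classes of autosomal peaks named by the Ezh2 lists that called them. Boxes show the median and quartiles and whiskers the lowest and highest peak; the 570 sites shared by library 1 and the knockout have medians of 70.5, 44.4 and 1257.5 bp, each between those of the neighbouring classes.

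Width followed the same order. Sites spanned 172 to 5276 bp in library 1 with a median of 1257.5 bp (quartiles 853.8 and 1742), against 2984 bp for peaks of all 3 lists, 1532 bp for those shared with library 0 alone and 555 bp for library 1 alone. Of the sites, 463 (81.2%) were wider than the median library 1 peak of 721 bp, and 98 (17.2%) spanned at least 2 kb. A wide peak overlaps other lists more easily, so width is part of what the rule selected on. Knockout peaks at the sites had a median width of 345 bp, against 368 bp for all knockout peaks. It was 488 bp in regions of all 3 lists and 294 bp outside library 1. Wild-type library 0 peaks were also short. Their median width was 470 bp over the autosomes and 386 bp at library 1 peaks shared with library 0 alone.

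Inside each site, Ezh2 in the knockout was called over a short stretch, most often a single one. There was 1 knockout peak at 513 of the 570 sites, 2 at 54 and 3 at 3. Knockout peaks covered a median of 334.5 bp, or 30.2% of the site (quartiles 21.3 and 41.9). In regions of all 3 lists the covered length was 928 bp and the covered share 34.3%. The covered share thus stood closer between these classes than the covered length. At 431 sites (75.6%) every knockout peak lay wholly inside the library 1 peak. The midpoint of the strongest knockout peak lay in the middle 50% of the library 1 peak at 369 sites (64.7%; 60.7 to 68.7), at a median of 214 bp from its midpoint. In regions of all 3 lists this was 1262 of 1645 (76.7%; 74.6 to 78.7).

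In bp of overlap or distance, few sites rested on the edge of the rule. In score more did, with 222 of the 623 knockout peaks under 50 in a list whose lowest score was 43.03. The overlap with knockout peaks was under 100 bp in all at 21 sites and under 50 bp at 10, the shortest being 6 bp. Just outside the rule were 45 peaks of library 1 alone with a knockout peak within 100 bp. On the library 0 side, 13 sites (2.28%) had a library 0 peak within 100 bp without touching it, the nearest at 9 bp. Among peaks of library 1 alone this share was lower, 0.783%. None of the 1645 peaks of all 3 lists overlapped library 0 by less than 100 bp in all. At 5 sites the knockout peak itself overlapped a library 0 peak, and at 21 it also touched another library 1 peak.

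The best-ranked sites are named by their mm9 positions, ordered by the mean of their rank in the library 1 list and the rank of their strongest knockout peak. No annotation of the mm9 build was used here, so no gene was assigned. The first was chr7:31836589-31839184 (2596 bp), with a library 1 score of 886.95 and a knockout score of 193.14. A library 0 peak with a score of 47.40 lay 212 bp away, under a separate, smaller library 1 peak. The next was chr11:53840669-53843235 (2567 bp), with scores of 484.76 and 306.10, and its 2 knockout peaks covered 56.1% of it. No library 0 peak lay within 47144 bp of it.

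The site ranked 3rd differed from the others in its surroundings. At chr13:40821244-40822826 (library 1 score 306.87) the knockout peak of 638.63, the highest at any of the 570 sites, overlapped mostly the neighbouring library 1 peak of 3100, which begins 10 bp away and which library 0 also called. Knockout peaks covered 12.95% of the site itself, and its other knockout peak scored 55.13. This is one of the 5 sites whose knockout peak also touched a library 0 peak.

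The sites ranked 4th to 6th stood farther from library 0. At chr13:23404374-23406258 the scores were 968.19 in library 1 and 118.22 in the knockout, and library 0 had no peak within 81928 bp. At chr11:69613434-69618709, the widest of the 570 sites at 5276 bp, they were 719.03 and 119.89, with library 0 562745 bp away. At chr10:40790112-40791951 they were 465.16 and 149.05, with library 0 1500446 bp away. This site carried peaks of both G9a lists, with scores of 153.24 (wild type) and 212.32 (rescue).

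The remaining 4 of the first 10 were the following. At chr8:74048637-74050648 the scores were 337.37 in library 1 and 208.90 in the knockout. At chr7:17059483-17062192 they were 1056.78 and 83.11, the site having a rescue G9a peak that scored 47.15. At chr18:37249110-37250835 they were 326.62 and 182.98. At chr7:150650570-150653031 they were 502.75 and 119.17, with a wild-type G9a peak of 21.71 near the lowest score of that list. Among these 10 sites the library 1 rank ran from 917 to 2191 of 11593 and the knockout rank from 125 to 2036 of 6174.

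**Figure D2:**
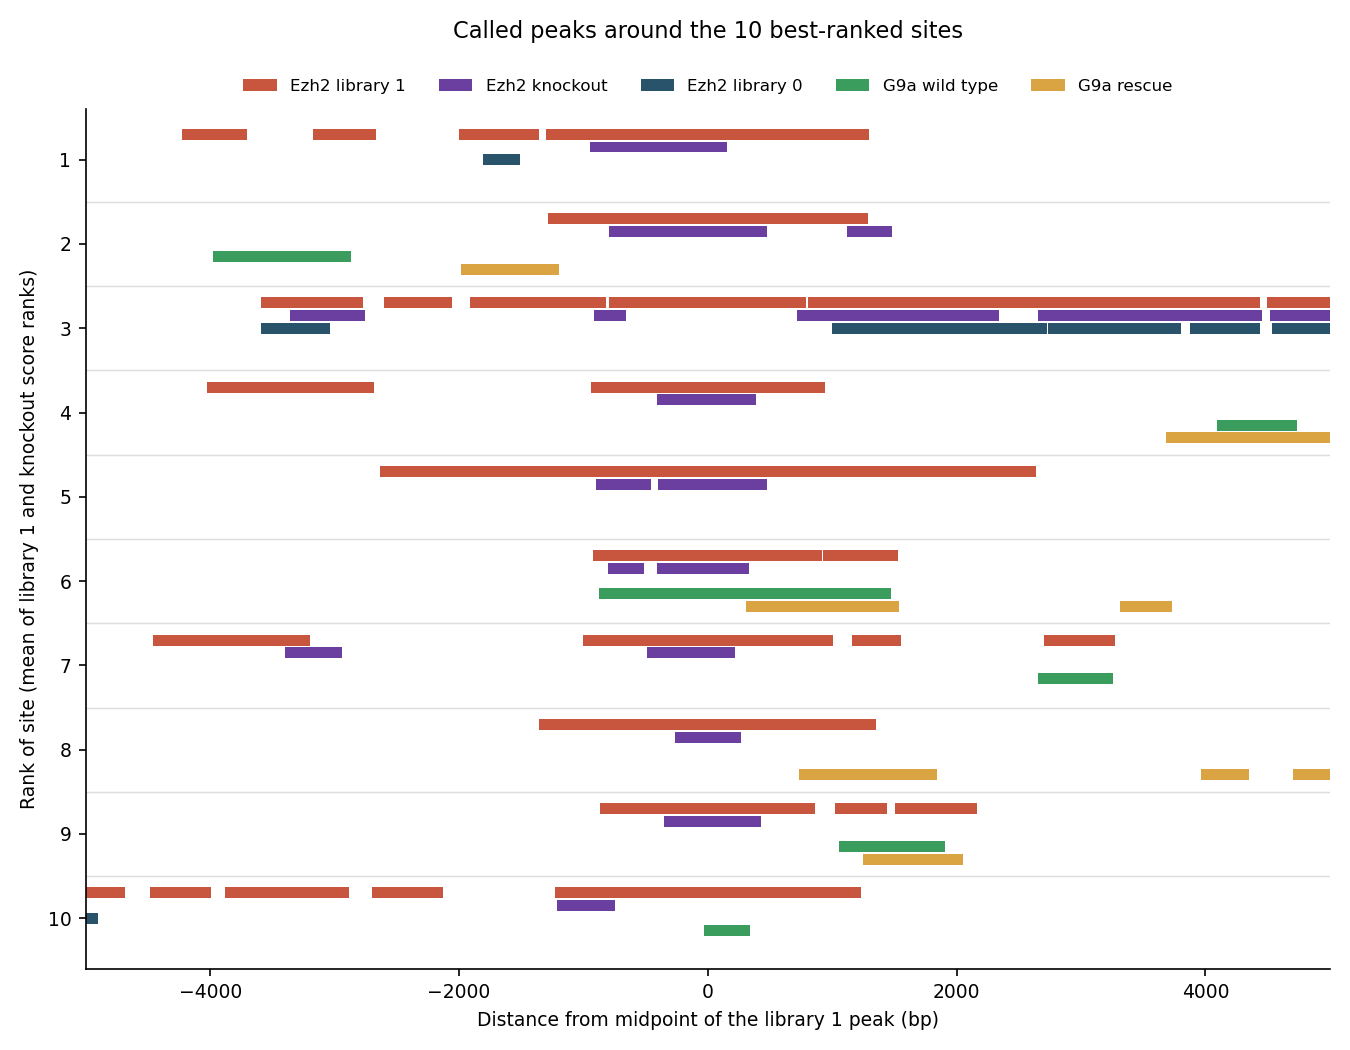
Called peaks within 5000 bp of the midpoint of each of the 10 best-ranked sites, one row of bars per list, with the x axis in bp from the midpoint of the library 1 peak and the y axis the rank of the site. Knockout peaks lie inside the library 1 peak at most sites, and at rank 3 the strongest knockout peak lies mainly over the next library 1 peak, where library 0 also has peaks.

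The other wide sites had knockout peaks on both sides of the median score of the knockout list, 58.72. After the chromosome 11 site of 5276 bp came chr17:93599390-93603599 (4210 bp), which had the highest library 1 score of the 570 sites, 1278.77, and a knockout score of 56.40. Both G9a lists had a peak there, with scores of 21.44 and 31.53. The next were chr19:25739868-25744030 (4163 bp; knockout score 74.06), chr8:73385444-73389449 (4006 bp; 53.66) and chr11:49446921-49450924 (4004 bp; 73.57). Knockout peaks covered 11.2% to 25.1% of these 5 sites, below the median of 30.2% over all sites.

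The 570 sites were mostly distant from any library 0 peak. The median distance from edge to edge was 104840 bp (quartiles 6018 and 344755, highest 8682681). For peaks of library 1 alone it was 128128 bp (9168 and 401046). Within 1 kb of a library 0 peak lay 77 sites (13.5%; 10.8 to 16.6) and 876 peaks of library 1 alone (10.4%; 9.75 to 11.1). Within 5 kb the shares were 24.0% and 22.1%, within 10 kb 28.2% and 25.5%, and within 100 kb 49.6% and 45.5%. The share of the sites was the higher one at each of these 4 distances, and no test of the difference was run. At shorter range it was also higher, with 2.28% against 0.783% within 100 bp and 10.0% against 5.28% within 501 bp. The library 0 peak nearest to the 77 sites had a median score of 103.25, against 86.84 for all library 0 peaks.

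**Figure D3:**
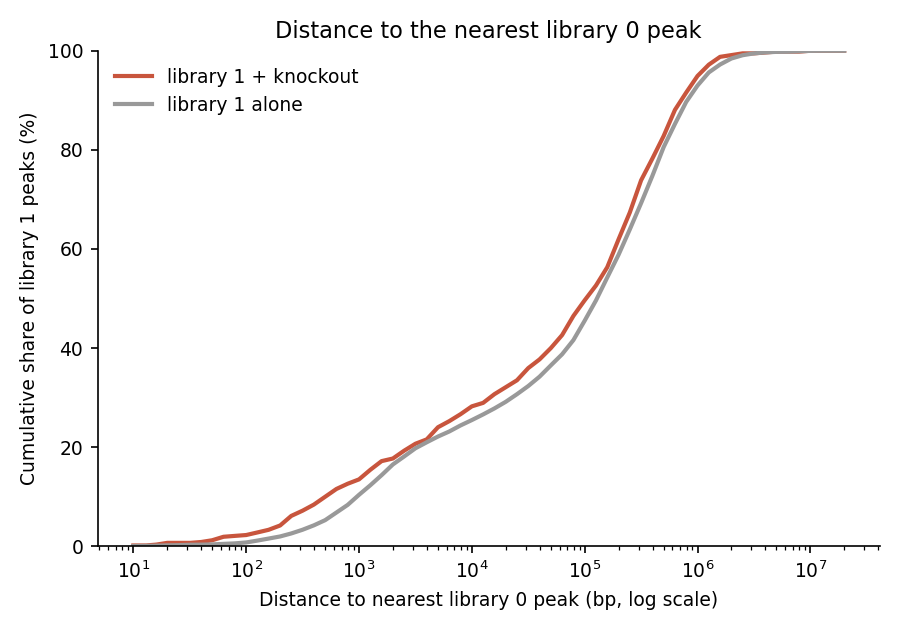
Cumulative share of library 1 peaks (y axis, %) by distance to the nearest library 0 peak (x axis, bp, log scale), for the 570 sites also called in the knockout and the 8427 peaks of library 1 alone. Within 501 bp lie 10.0% of the sites and 5.28% of the peaks of library 1 alone, and within 100 kb 49.6% and 45.5%.

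Sites near to and far from library 0 had similar knockout peaks. The median of the highest knockout score was 53.89 at the 137 sites within 5 kb, 55.88 at the 146 between 5 and 100 kb and 55.58 at the 287 beyond 100 kb. Median library 1 scores were 140.1, 122.3 and 159.0, and median widths 1090, 1380 and 1304 bp. The farthest sites were chr7:4944404-4946333 (8682681 bp; scores of 270.65 in library 1 and 96.82 in the knockout) and chr14:88868753-88869679 (4020554 bp; 198.37 and 86.64). They were followed by chr12:91051053-91052165 (3287082 bp; 130.63 and 47.08), chr13:16108889-16110084 (2231995 bp; 344.08 and 45.86) and chr6:97436898-97438106 (2032254 bp; 159.91 and 94.63).

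Some sites lay beside regions that all 3 Ezh2 libraries called. Within 10 kb of a library 1 peak of all 3 lists were 127 sites (22.3%; 18.9 to 25.9) and 1575 peaks of library 1 alone (18.7%; 17.9 to 19.5). No other library 1 peak lay within 10 kb of 218 sites (38.2%; 34.2 to 42.4), against 44.2% (43.1 to 45.3) for library 1 alone. The median distance from a site to the nearest other site was 661034 bp. Within 10 kb of another site lay 66 sites (11.6%), which formed 32 clusters. The 2 clusters of 3 sites were chr8:74035021-74050648 and chr17:34323002-34335931.

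Over longer distances the sites were denser in a few stretches. The 1 Mb window with the most sites, 12, was on chromosome 18, where they ran from 37090210 to 37927035. This stretch held 88 library 1 peaks, of which 18 were in all 3 lists, 5 were shared with library 0 alone and 53 were in library 1 alone. The 12 sites had library 1 scores of 46.40 to 437.02 and knockout scores of 44.34 to 182.98, and lay 139 to 162380 bp from library 0. The next was on chromosome 8 from 73266198 to 74225774, with 10 sites among 33 library 1 peaks. Library 0 shared 2 of those 33 peaks, and none was in all 3 lists. The sites there had library 1 scores of 35.97 to 430.77 and knockout scores of 53.66 to 225.34. Neither G9a list had a peak at these 10 sites, and the 12 sites of chromosome 18 held 2 rescue peaks and no wild-type G9a peak. Over all autosomal library 1 peaks 14.4% had a wild-type and 16.4% a rescue G9a peak. With so few sites these counts are no result about G9a in these stretches. These windows were picked for their counts, so the counts are a description.

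The sites were found on all 19 autosomes and in 187 of 258 blocks of 10 Mb. Chromosome 11 had most, 69 (12.1%), followed by chromosomes 2 (46), 7 (44) and 8 (41). Chromosome 11 carries 4.93% of the autosomal length, 9.41% of the library 1 peaks, 8.50% of the library 0 peaks and 11.8% of the knockout peaks. It also had the most sites for its length, 0.566 per Mb, followed by chromosome 19 with 0.424. Of its 875 library 1 peaks without a library 0 peak, 7.89% were found in the knockout (6.19 to 9.87). The 6.34% of all autosomes lay inside this interval. Chromosomes 8 and 11 together held 19.3% of the sites, 16.6% of library 1 peaks, 20.1% of knockout peaks and 27.6% of the knockout peaks outside library 1. The share of the sites on them was thus near that of all knockout peaks and below that of the peaks called in the knockout without library 1.

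Chromosome 1 had few of these sites. It held 18 (3.16%), against 9.63% of library 1 peaks, 7.53% of library 0 peaks and 5.49% of knockout peaks. Of its 923 library 1 peaks without a library 0 peak, 1.95% were found in the knockout (exact binomial 95% interval 1.16 to 3.06), against 6.34% over all autosomes and 4.63% to 9.07% on the other 18. These 923 peaks also had the lowest median score of any chromosome, 38.39, against 41.72 to 51.35 elsewhere. Of those that scored at least 100, 9 of 125 (7.20%) were found in the knockout, against 361 of 1793 (20.1%) over all autosomes. Chromosome 1 was the lowest of the 19 on both measures. Peak lists carry no copy number of the chromosomes, so copy number and occupancy cannot be told apart.

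**Figure D4:**
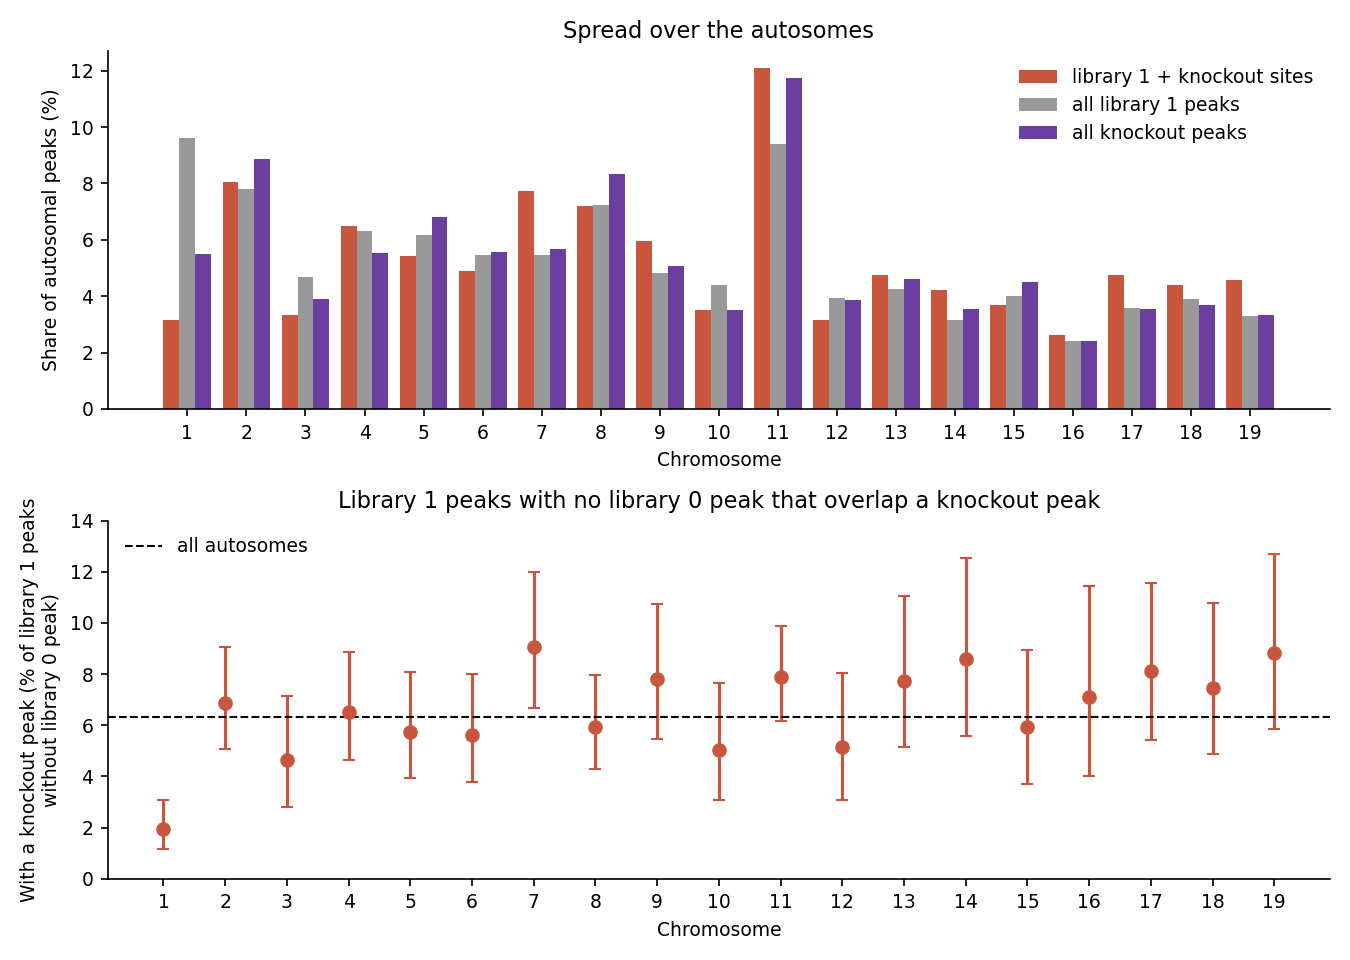
Upper panel: share of autosomal peaks on each chromosome (y axis, %) for the 570 sites, all library 1 peaks and all knockout peaks. Lower panel: share of library 1 peaks without a library 0 peak that overlap a knockout peak (y axis, %), with exact binomial 95% intervals and a dashed line at the value of all autosomes, 6.34%; chromosome 1 is lowest at 1.95%.

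G9a was compared at these sites to ask whether Ezh2 sites that are still called without G9a and GLP carried G9a in the wild type. Most did not. A wild-type G9a peak overlapped 89 of the 570 sites (15.6%; exact binomial 95% interval 12.7 to 18.9), against a background of 14.4% over all autosomal library 1 peaks. A rescue G9a peak overlapped 90 (15.8%; 12.9 to 19.05), against 16.4%. Both G9a lists had a peak at 39 sites (6.84%; 4.91 to 9.23), against 6.19%, and at least one of them at 140 (24.6%; 21.1 to 28.3), against 24.6%. Each of these 4 shares was near its background, with the background inside the interval, so these counts are no result about the sites beyond what library 1 peaks in general show.

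The other classes of library 1 peaks had wild-type G9a peaks in 16.6% (all 3 lists), 15.8% (library 0 alone) and 13.7% (library 1 alone) of cases, and rescue peaks in 21.3%, 18.5% and 15.3%. Among peaks of library 1 alone G9a overlap went up with width, so it was also read within bands of width. Under 600 bp, 9 of 71 sites (12.7%) and 11.5% of peaks of library 1 alone had a wild-type G9a peak. From 600 bp to under 900 bp these values were 14.9% and 15.1%, from there to under 1500 bp 15.0% and 16.7%, and at 1500 bp or more 17.5% and 20.9%. The value of library 1 alone lay inside the interval of the sites in each band. For rescue G9a it did so too, with 17.0% (12.1 to 22.8) of sites and 20.9% of peaks of library 1 alone at 1500 bp or more.

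**Figure D5:**
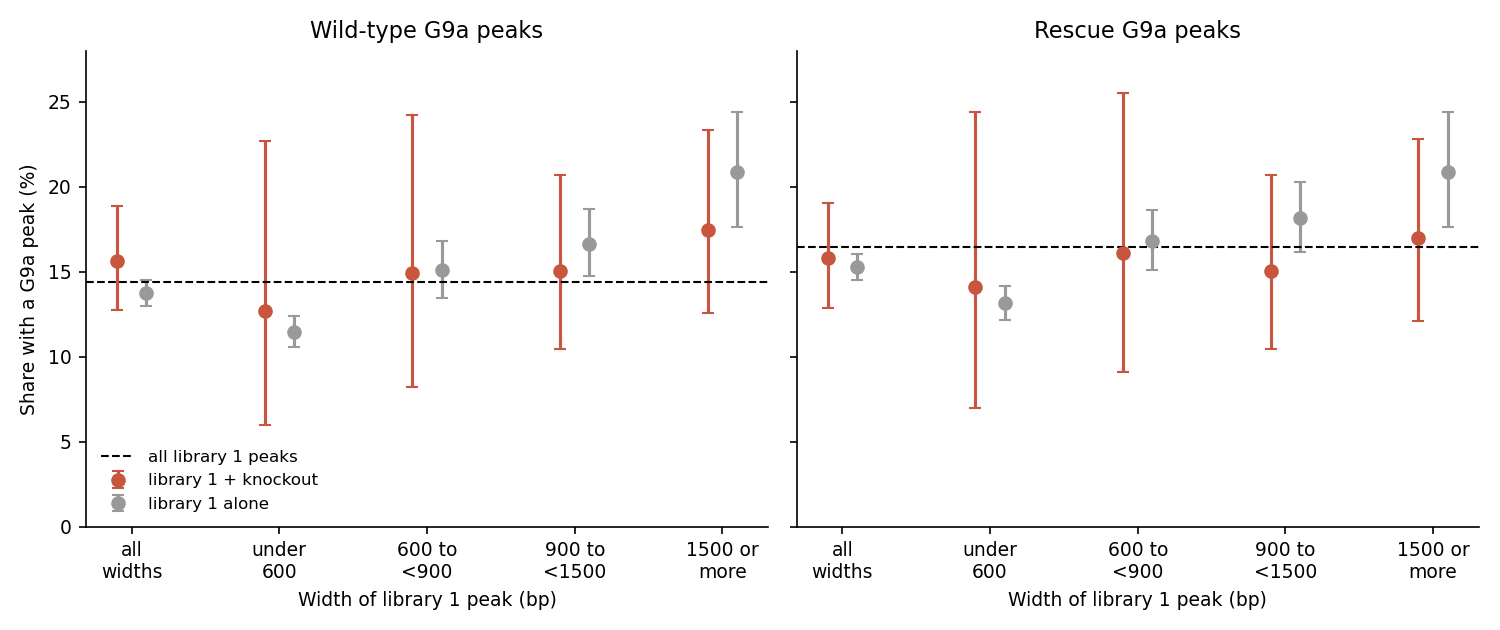
Share of library 1 peaks that overlap a G9a peak (y axis, %), over all widths and in 4 bands of library 1 peak width (x axis), for the 570 sites also called in the knockout and for peaks of library 1 alone, with exact binomial 95% intervals. The dashed lines mark all autosomal library 1 peaks, 14.4% for wild-type and 16.4% for rescue G9a, and the intervals of the sites include these lines in each band.

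G9a peaks at the sites were of ordinary strength for their lists. The 89 sites had wild-type G9a scores of 20.03 to 308.6 with a median of 35.22 (percentile 56.7 of the G9a list), against 36.84 in library 1 alone and 30.85 in all 3 lists. At 90 sites the rescue scores ran from 20.14 to 549.9 with a median of 31.40 (percentile 64.9). Scores of 100 or more were found at 7 sites for wild-type G9a (1.23%, against 2.16% of all library 1 peaks) and at 14 for the rescue (2.46%, against 2.38%). Sites with and without wild-type G9a had similar knockout peaks, with medians of the highest score of 54.53 and 55.58. Their covered shares were 27.4% and 30.7%. At 59 of the 89 sites (66.3%; 55.5 to 76.0) the wild-type G9a peak touched the stretch that the knockout peak shared with library 1. In regions of all 3 lists with a wild-type G9a peak this was 144 of 273 (52.7%; 46.6 to 58.8), and for rescue G9a it was 51 of 90 and 184 of 351 (56.7% and 52.4%). The regions of all 3 lists were wider, with a median of 2984 bp against 1257.5 bp for the 570 sites. These shares were not matched for width, and their difference was not tested.

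The sites with the strongest wild-type G9a peaks had Ezh2 peaks of varied rank in the knockout, at percentiles 31.1 to 82.8 of that list. At chr11:81781640-81782901 the G9a score was 308.63 and the knockout Ezh2 score 49.54, and the rescue G9a list had no peak. At chr2:143372586-143374177 the wild-type and rescue G9a scores were 296.03 and 549.87, among the top 2% of each list, and the knockout Ezh2 score was 58.36. At chr11:69417537-69419534 the wild-type G9a score was 204.88, again with no rescue peak. The chromosome 10 site with G9a scores of 153.24 and 212.32 came next, with a knockout Ezh2 score of 149.05, the highest of these 5. It was followed by chr6:4687301-4688542 with G9a scores of 140.80 and 117.93. Rescue G9a was therefore called at 3 of these 5 sites.

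Ranked by both G9a lists together, the site on chromosome 2 with a rescue score of 549.87 came first and the chromosome 10 site came second. The next were chr2:26062173-26063898 (wild-type G9a score 84.42, rescue 239.22), chr13:100669673-100671396 (71.52 and 244.52) and chr3:118133873-118134675 (62.52 and 294.49). At the last of these a library 0 Ezh2 peak lay 139 bp away, and at the chromosome 13 site none lay within 648991 bp.

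G9a overlap at the sites varied with the chromosome and with the distance to library 0. On chromosome 1, 7 of 18 sites had a wild-type G9a peak (interval 17.3% to 64.3%) and 1 a rescue peak (0.141% to 27.3%). On chromosome 8, 8 of 41 sites had a wild-type G9a peak (8.82% to 34.9%) and 1 a rescue peak (0.0617% to 12.9%). Peaks of library 1 alone leaned the same way there, with 21.7% and 7.07% on chromosome 1 and 21.2% and 7.22% on chromosome 8. Each of these values of library 1 alone lay inside the wide interval of the sites. On the other 17 autosomes the shares were 14.5% and 17.2% for the sites, and 12.0% and 17.1% for library 1 alone. Sites beyond 100 kb of library 0 had rescue G9a peaks in 20.2% of cases (15.7 to 25.3) and those within 5 kb in 9.49% (5.15 to 15.7). For library 1 alone the corresponding values were 16.0% and 12.2%, so the same direction was seen with a smaller gap. Between 5 and 100 kb rescue peaks lay at 13.0% of sites and at 16.6% of library 1 alone, its highest band. Wild-type G9a shares beyond 100 kb and within 5 kb were 17.4% and 13.1% for the sites. For library 1 alone they were 14.3% and 9.33%. In the band from 5 to 100 kb wild-type G9a peaks lay at 14.4% of sites and at 16.7% of library 1 alone, again its highest band. These differences between chromosomes and distances were chosen after their values were seen and were not tested.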

How the data were processed

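ChIP-seq peak lists of 5 libraries were used. The submitters' processing notes name Bowtie 0.12.7, MACS 1.4 and mm9. Wild-type inputs were pooled as control for Ezh2 and G9a, per the series' design text. The series also has a knockout input, and which control the knockout Ezh2 list used is not stated. Each deposited list holds peaks of 1 library with a score from the authors' peak caller, whose threshold the sources used here do not give. The inputs were not analysed here.

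Peaks were classed by overlap of at least 1 bp. Percentiles of score are within the autosomal peaks of 1 list. Shares carry exact (Clopper-Pearson) 95% binomial intervals. Positions are 1-based. Sites were named by 5 rules: the 10 best mean ranks, the 5 widest, the 5 farthest from library 0, the 5 highest wild-type G9a scores and the first 5 with both G9a lists. The class code was tested on 6000 simulated peaks, of which 6000 were classed correctly. Python 3.11.15, numpy 2.4.6, pandas 2.3.3, scipy 1.17.1 and matplotlib 3.10.9 were used, with mm9 chromosome lengths from GenomeInfoDb 1.38.1. Alternatives covered overlap, score minimum, list length, merging, chromosomes and leaving out library 0. The sites, lists and tests were chosen with earlier results of these data known. Gene lists and sequences were planned for an mm9 annotation and genome and were not run.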

Additional observations from a re-analysis of the deposited data

How the results depend on the processing

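In 63 of 90 alternatives a value stayed within the interval of its reported value (for the number of sites, within 1.5 times). The number of sites kept this in 9 of 11, ranging from 394 to 811. With library 1 and knockout scores of at least 100 it was 38, at a median library 1 percentile of 44.8, a knockout percentile of 22.9 and a width of 1753 bp, with 15.8% of sites on chromosome 11; percentiles here are within the shortened lists. With a gap of up to 1 kb the library 1 percentile was 62.2 and the width 994 bp. With a common lowest score they were 56.8 and 1337 bp, and with the 5342 top-scoring peaks of library 1 and the knockout 44.5 and 1417 bp. With peaks within 1 kb merged the knockout percentile was 50.8, the width 1657 bp and the distance to library 0 185675 bp. The G9a shares were then 19.45% (wild type) and 20.6% (rescue), against 18.6% and 20.4% of all merged library 1 peaks. Without chromosomes 8 and 11 the width was 1179 bp, and the share of sites on chromosome 11 has no value. Leaving out sites within 1 kb of library 0, chosen after seeing the data except for the distance, gave a distance of 162380 bp. With G9a scores of at least 100 the G9a shares were 1.23% and 2.46%, and with as many G9a as library 1 peaks 2.28% and 3.51%, against 3.11% and 4.51% of all library 1 peaks.

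Without library 0 the rule takes in every library 1 peak with a knockout peak, 2215 sites. They had a library 1 percentile of 89.3, a knockout percentile of 63.8 and a width of 2418 bp. Their rescue G9a share was 19.9% (18.3 to 21.6), against 16.4% of all autosomal library 1 peaks. Their wild-type G9a share was 16.3% (14.8 to 17.95), against 14.4%, so both backgrounds lay below the intervals. These shares were not matched for width, and their difference from the background was not tested. Without library 1 the rule finds no site, and without library 0 the distance has no value. No paired analysis was possible because wild-type and knockout Ezh2 share 1 replicate number. Depth is unknown, so whether a peak missing from library 0 reflects depth was not tested.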
